A study of Mus musculus with 6 samples.

Results

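The limbal progenitor genes other than keratins are 10 genes of 55421 listed in the count files: Lrig1, Cebpd, Ifitm3, Cdh3, Sox9, Bmi1, Itga9, Abcg2, Cd63 and Mt1. They are known from work on limbal cells and were matched by symbol to the Ensembl gene IDs of the files, and each was found once. RNA was sequenced from corneas of mice heterozygous for a Pax6 mutation and of WT mice, all aged 20 weeks, with 3 libraries per genotype, M1 to M3 for mutant and W1 to W3 for wildtype. The labels give neither the mutant allele nor the strain, and do not say whether corneas were pooled. Pax6, the mutated transcription factor gene, stood at 401 ± 49.1 CPM (counts scaled to the normalised library total, SD, n = 3) in mutant corneas and 790 ± 53.5 CPM in wildtype corneas.

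The corneal epithelium is renewed from stem and progenitor cells in the limbus, the rim where cornea meets conjunctiva. These cells divide slowly, sit on a basement membrane and give rise to daughters that move towards the centre of the cornea and differentiate. The 10 genes have been used to mark or sort such cells in mouse or human tissue, but none is restricted to them: several are also active in stromal, immune, vascular or conjunctival cells.

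Gene counts ran from 16858005 to 21846406 per library. Of the 6 libraries, W1 lay farthest out on the first principal component, and M1 was the only library with abundant Xist RNA and no Y-linked counts. All 8 markers of differentiated corneal epithelium were detected, with a summed level of 11905 to 17725 CPM in mutant and 29869 to 40644 CPM in wildtype libraries. Of these 8, 4 were called lower and 4 were not called. Klf5 and Ehf, both uncalled, had log2 fold changes of 0.51 and 0.12. Some markers of other cell types were called higher in mutant libraries, and so were 5.59% of all tested genes. The 10 keratocyte and stroma markers, of which 7 were called higher, summed to 5282, 2141 and 843 CPM in M1 to M3, against 364 to 442 CPM in wildtype libraries. Col1a1 and Col1a2 held most of the M1 sum, at 2704 and 1319 CPM. Kera, Lum and Ogn were not called, and the groups overlapped for Kera, Lum and Col6a2. The 10 macrophage and leukocyte markers summed to 169 to 207 CPM in mutant and 50.7 to 72.0 CPM in wildtype libraries, with 6 of 9 tested higher. Among these, Tyrobp had 22, 18 and 15 counts in M1 to M3, against 0, 1 and 1 in W1 to W3. It passed the low-count filter only through the mutant libraries. Itgam held the largest part of the leukocyte sum, at 92.1 CPM on average in mutant and 30.9 CPM in wildtype corneas. It shares 68.7% of its exon bases with Gm49368 on the same strand, so its counts are uncertain. Cd68, Adgre1 and Mrc1 were not called, and the groups overlapped for Cd68. Conjunctival and goblet cell markers summed to 5628 to 7081 CPM in mutant and 287 to 531 CPM in wildtype libraries, with 4 of 6 tested higher. Most of this sum came from Krt13 and Krt4, at 3986 and 1931 CPM on average in mutant corneas. Muc5ac had 9.86, 119 and 288 CPM in M1 to M3, against 6.41, 1.82 and 2.57 CPM in W1 to W3. Tff1 and Spdef did not pass the low-count filter. No marker of these 3 types was at 0 in all libraries. Vascular markers summed to 53.4 to 121 CPM in mutant libraries, against 2.78 CPM in W1 and 36.0 and 42.1 CPM in W2 and W3. None of the 7 tested vascular markers was called. Melanocyte markers summed to 235 to 413 CPM in mutant libraries, against 9.82 CPM in W1 and 305 and 187 CPM in W2 and W3. None of the 5 tested melanocyte markers was called either, and the sum in M2 lay below that in W2. Mitochondrial genes took 5.47% to 7.02% of gene counts in mutant and 2.41% to 4.29% in wildtype libraries.

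All 10 members passed the low-count filter. Between mutant and wildtype corneas, Cebpd, Ifitm3 and Cdh3 rose, Lrig1 fell, and the other 6 did not pass adjusted p 0.05 in edgeR's quasi-likelihood test, with p-values adjusted by Benjamini-Hochberg over all 15209 genes tested. Of all tested genes, 10.1% were called, 5.59% higher and 4.46% lower. The called genes of each list below are to be read beside these shares. Without W1 the same number of members, 3 higher and 1 lower, was called, and without M1 it was 3 and 0. The median log2 fold change was 0.15 for the members and 0.01 for all tested genes, and 5 members were above 0. The groups did not overlap for 6 members, where 31.9% of all tested genes showed no overlap. In whole corneas, fewer cells of a type and less RNA per cell cannot be told apart.

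**Figure D1:**
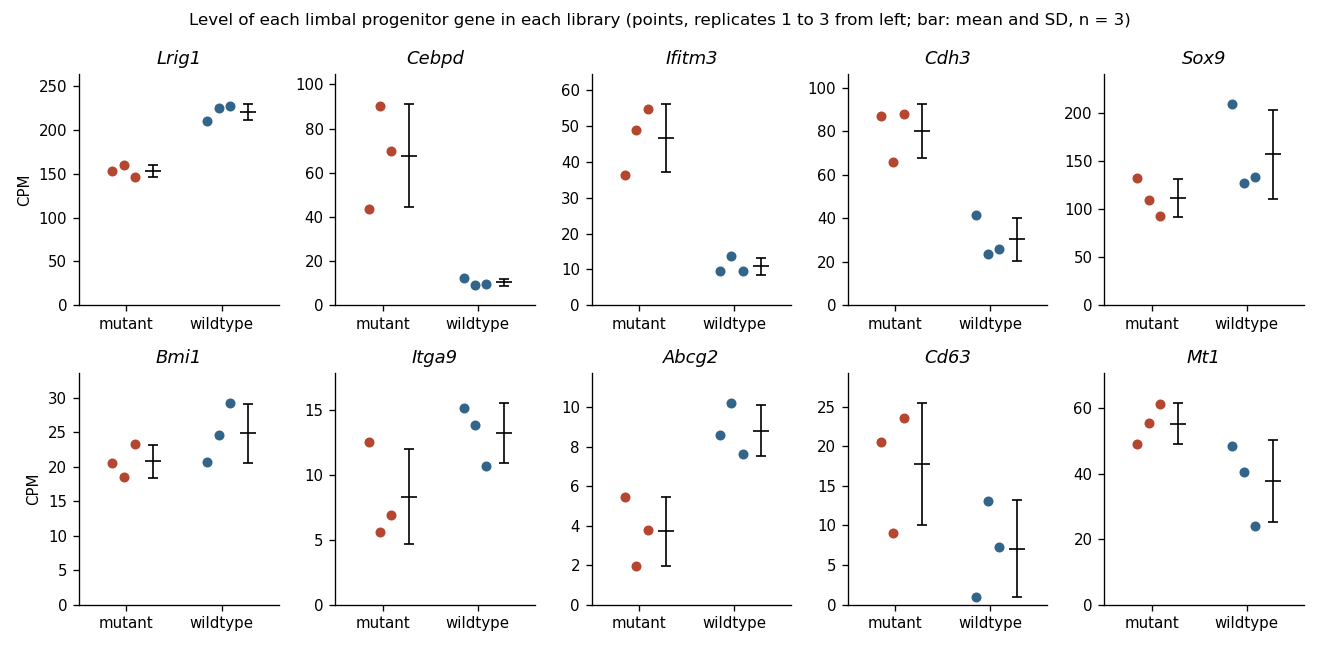
Level of each of the 10 genes in CPM, with mutant libraries (red) left of wildtype libraries (blue); points are libraries in the order of replicates 1 to 3, and bars give the mean and SD of 3. Cebpd, Ifitm3, Cdh3 and, by a narrow margin, Mt1 lie wholly above wildtype in mutant libraries, while Lrig1 and Abcg2 lie wholly below it.

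Cebpd encodes C/EBP delta, a transcription factor linked to quiescence and self-renewal of human limbal stem cells. It had 43.3, 90.1 and 69.9 CPM in M1 to M3, against 12.3, 9.14 and 9.57 CPM in W1 to W3. Every mutant library lay above every wildtype library, and the mutant libraries were spread more widely. Its level was 6.55-fold higher, a log2 fold change of 2.71 ± 0.28 (SE) with adjusted p = 0.0013 in edgeR's quasi-likelihood test, and a 95% interval of 4.21-fold to 10.2-fold. M1, the mutant library with the largest stromal marker sum, had the lowest mutant Cebpd level and also the smallest leukocyte sum. Single leukocyte markers did not share this order. Among mutant libraries, Cd14, Itgam, Ptprc and Cd68 were lowest in M1, while Csf1r, Adgre1, Laptm5 and Tyrobp were highest there. Fcer1g and Mrc1 lay between. The part of stromal cells and leukocytes in the rise was not tested. Cebpd is ENSMUSG00000071637, at chr16:15887286-15891031 of GRCm38, plus strand. On the opposite strand Spidr shares 562 of its 3746 exon bases. Spidr had 15.6, 19.2 and 17.7 CPM in M1 to M3, against 8.23, 5.39 and 4.97 CPM in W1 to W3. The sources used here do not say whether the authors counted by strand, so the Cebpd counts are uncertain to that extent.

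Of 5 other tested genes of the C/EBP family 2 rose and none fell, with a list median log2 fold change of 0.75. Cebpa, a factor of epithelial and myeloid differentiation, had 53.6, 56.5 and 55.7 CPM in M1 to M3, against 19.9, 25.6 and 26.8 CPM in W1 to W3. Cebpg, the widely expressed gamma form, rose by 0.63 ± 0.16 (log2, SE). Cebpb, the beta form, averaged 78.3 CPM in mutant and 45.7 CPM in wildtype corneas and was not called (adjusted p = 0.14, edgeR's quasi-likelihood test); Tmem189 covers 20.7% of its exon bases on the opposite strand. Of 7 cyclin-dependent kinase inhibitors, which hold cells out of the cycle, Cdkn1a alone changed, at 41.2 ± 4.46 CPM in mutant and 72.2 ± 9.40 CPM in wildtype corneas (SD, n = 3 each). With 1 library left out, by edgeR's quasi-likelihood test, the call of Cebpg ended without M1 (adjusted p = 0.10), M2 (0.11), M3 (0.20), W2 (0.13) or W3 (0.14), and that of Cdkn1a without M1 (0.051) or M3 (0.063). The call of Cebpg also ended with RLE scaling (adjusted p = 0.052, edgeR's quasi-likelihood test). Exons of Cebpa, Cebpg and Cdkn1a overlap those of other genes, so their counts are uncertain too.

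Ifitm3 encodes an interferon-induced transmembrane protein that restricts virus entry. It was named as a marker of quiescent cells of the outer limbus in single-cell studies of mouse cornea. Its level was 36.3, 49.0 and 54.9 CPM in M1 to M3, against 9.48, 13.7 and 9.52 CPM in W1 to W3. The groups were far apart, with the lowest mutant value above all wildtype values. The level was 4.29-fold higher (95% interval 3.00 to 6.13), with a log2 fold change of 2.10 ± 0.22 (SE) and adjusted p = 0.0014 in edgeR's quasi-likelihood test. M1, with the largest stromal and smallest leukocyte marker sum of the mutant libraries, had the lowest mutant Ifitm3 level. Single leukocyte markers went both ways in M1, as given for Cebpd. The part of stromal cells and leukocytes in the rise was not tested.

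Ifitm3 (ENSMUSG00000025492, chr7:141009586-141010770, minus strand) lies near 2 other members of its family, Ifitm1 (chr7:140967221-140969825, plus strand) and Ifitm2 (chr7:140954837-140955987, minus strand), and all 3 rose. Ifitm1, the most abundant of them, had 478, 507 and 669 CPM in M1 to M3, against 272, 235 and 221 CPM in W1 to W3. Ifitm2 had 14.5, 17.8 and 16.7 CPM in M1 to M3, against 5.73, 6.76 and 5.72 CPM in W1 to W3. Their log2 fold changes were 1.18 ± 0.16 and 1.43 ± 0.21 (SE), smaller than that of Ifitm3; the difference between the genes was not tested. The more distant relative Ifitm10 averaged 4.45 CPM in mutant and 3.27 CPM in wildtype corneas and was not called. Of the 629 words of 50 bases in Ifitm3 transcripts, 63 also occur in transcripts of other genes, among them Ifitm2. Ifitm2 shares 40.9% of its exon bases with Gm45717 on its own strand. Pairs not aligned uniquely stand in a summary line of the files and not under a gene, so the counts of Ifitm3 and Ifitm2 are uncertain.

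The bases before the start of the 3 Ifitm genes are shown because the genes lie together and rose together, and those before Lrig1 because it is the member that fell. They are RefSeq sequences of GRCm38.p6, 5′ to 3′ along the gene, from 250 bases before the RefSeq start up to the first base in an annotated exon. The Ifitm1 stretch lies inside the GENCODE gene, in an intron. Capitals mark matches to the motifs searched.
Ifitm3 (chr7:141010771-141010994, minus strand): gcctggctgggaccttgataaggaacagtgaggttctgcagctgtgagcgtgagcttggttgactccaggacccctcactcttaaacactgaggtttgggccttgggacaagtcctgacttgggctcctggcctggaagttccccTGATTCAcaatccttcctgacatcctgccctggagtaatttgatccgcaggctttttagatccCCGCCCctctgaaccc
Ifitm2 (chr7:140955988-140956211, minus strand): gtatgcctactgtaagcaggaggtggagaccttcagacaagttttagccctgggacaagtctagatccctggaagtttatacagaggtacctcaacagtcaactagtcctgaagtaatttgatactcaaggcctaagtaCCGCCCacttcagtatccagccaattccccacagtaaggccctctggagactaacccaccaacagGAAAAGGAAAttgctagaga
Ifitm1 (chr7:140967826-140968027, plus strand): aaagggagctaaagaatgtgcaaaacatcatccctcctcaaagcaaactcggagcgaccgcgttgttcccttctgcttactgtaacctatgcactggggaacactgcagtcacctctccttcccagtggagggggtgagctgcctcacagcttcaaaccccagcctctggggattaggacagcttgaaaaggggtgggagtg
Lrig1 (chr6:94700159-94700395, minus strand): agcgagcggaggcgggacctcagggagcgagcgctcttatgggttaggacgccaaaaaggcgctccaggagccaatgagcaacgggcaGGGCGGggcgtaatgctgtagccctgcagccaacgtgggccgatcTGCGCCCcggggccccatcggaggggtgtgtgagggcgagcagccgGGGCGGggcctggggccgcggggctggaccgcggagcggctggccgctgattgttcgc
The 6 motifs were searched on both strands over all 250 bases, overlaps allowed, and set beside their share among 32851 RefSeq promoters of that length. They were an interferon response element, GAAA on either side of 2 free bases (2.98%), a STAT site TTCNNNGAA (7.02%), a C/EBP site TTGCNNAA (9.56%), a metal response core TGCACNC or TGCGCNC (21.4%), a GC box GGGCGG (32.7%) and an AP-1 site TGANTCA (6.75%). Ifitm3 held 1 AP-1 match and 1 GC box. Ifitm2 held 1 interferon response match and 2 GC boxes, and Ifitm1 held no match to these letters in the window. Lrig1, whose window was 71.6% G and C against 53.6% for Ifitm3, held 2 GC boxes and 1 metal response core. Promoters of 7 of the 10 members are in the table; Cebpd, Cdh3 and Sox9 are not shown.

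Cdh3 encodes P-cadherin, the calcium-dependent adhesion protein of basal epithelial cells. It had 86.8, 65.8 and 87.8 CPM in M1 to M3, against 41.5, 23.3 and 25.8 CPM in W1 to W3. All mutant libraries were above all wildtype libraries, and W1 was the nearest to them. The level was 2.66-fold higher (95% interval 1.82 to 3.86), with a log2 fold change of 1.41 ± 0.24 (SE) and adjusted p = 0.0089 in edgeR's quasi-likelihood test. The log2 fold change was 1.71 without W1 and 1.25 without W2, and the call held with each library left out. Cdh3 is ENSMUSG00000061048, at chr8:106510891-106557297, plus strand, and no exon of another gene overlaps its exons.

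Where 4.46% of all tested genes fell, 1 of 9 other tested cadherins and catenins did, and none rose. That gene, Cdh4, encodes R-cadherin and averaged 0.842 ± 0.390 CPM in mutant and 11.9 ± 1.97 CPM in wildtype corneas (SD, n = 3 each), a log2 fold change of -3.79 ± 0.41 (SE). Cdh1, the E-cadherin of all epithelial layers, averaged 650 CPM in mutant and 622 CPM in wildtype corneas. Its partner Ctnnb1, beta-catenin, averaged 422 CPM in mutant and 364 CPM in wildtype corneas. Neither of these was called, and the list median was 0.06 on the log2 scale.

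Lrig1 encodes a transmembrane protein that dampens signalling of the EGF receptor and related kinases, and marks stem cells in skin. Its level was 154, 160 and 146 CPM in M1 to M3, against 210, 225 and 227 CPM in W1 to W3. The libraries of each genotype lay close together, and no mutant library reached any wildtype library. The log2 fold change was -0.53 ± 0.11 (SE), a 1.44-fold lower level in mutant, with adjusted p = 0.020 in edgeR's quasi-likelihood test. The size of the fall stayed between -0.56 and -0.50 with each library left out, but the call ended without M1 (adjusted p = 0.073), M2 (0.066), M3 (0.11), W2 (0.064) or W3 (0.065), all by edgeR's quasi-likelihood test. Lrig1 is ENSMUSG00000030029, at chr6:94604529-94700158, minus strand. Slc25a26, on the opposite strand, shares 144 of its 5585 exon bases and had 0.551 to 0.945 CPM in mutant and 1.23 to 2.21 CPM in wildtype libraries.

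Of 9 tested relatives and receptor targets of Lrig1, 1 rose and none fell, where 5.59% of all tested genes rose. Ret, a receptor tyrosine kinase of nerve growth factors of the GDNF family, averaged 17.1 ± 7.36 CPM in mutant and 6.72 ± 0.914 CPM in wildtype corneas (SD, n = 3 each). By edgeR's quasi-likelihood test its call ended without M1 (adjusted p = 0.11), M3 (0.087), W1 (0.054), W2 (0.092) or W3 (0.079), and limma-voom gave adjusted p = 0.054. The paralogues Lrig2 and Lrig3 averaged 25.7 and 39.3 CPM in mutant corneas, against 23.8 and 37.9 CPM in wildtype corneas. Egfr, the EGF receptor itself, averaged 268 CPM in mutant and 325 CPM in wildtype corneas, without overlap of the libraries but with adjusted p = 0.22 in edgeR's quasi-likelihood test.

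**Figure D2:**
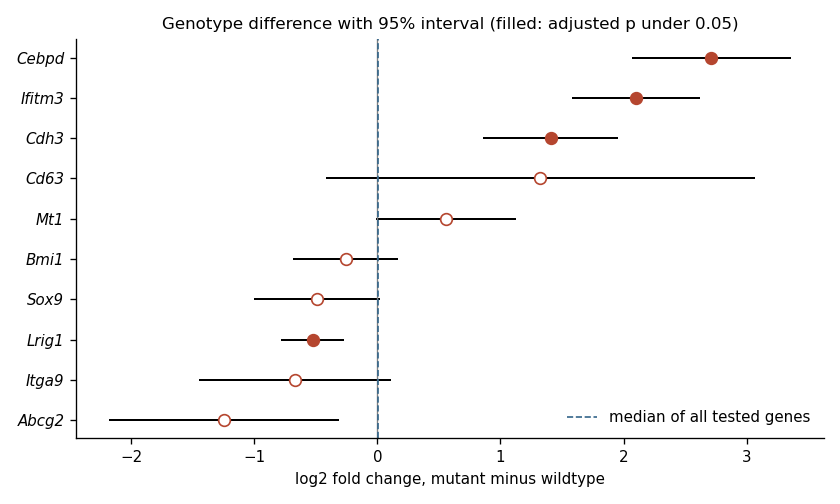
Log2 fold change of each gene, mutant minus wildtype, with its 95% interval; filled points passed adjusted p 0.05 and the dashed line is the median of all tested genes. Cd63 has the widest interval, from -0.41 to 3.06, and Lrig1, called at -0.53, a narrow one.

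Sox9 encodes a transcription factor of progenitor cells in many epithelia, and in mouse cornea is found in the limbus. It had 132, 109 and 93.1 CPM in M1 to M3, against 209, 127 and 134 CPM in W1 to W3. The groups overlapped between M1 and W2, and W1 stood well above the other 5 libraries. A log2 fold change of -0.49 ± 0.22 (SE) had a 95% interval of -0.99 to 0.015 and was not called (adjusted p = 0.22, edgeR's quasi-likelihood test). Without W1 it was -0.22. Of 11 other tested Sox genes, Sox21 rose, at 45.1 ± 10.5 CPM in mutant and 17.9 ± 4.13 CPM in wildtype corneas (SD, n = 3 each), and Sox13 fell, by 0.59 ± 0.13 (log2, SE). The call of Sox13 ended without M2 (adjusted p = 0.12), M3 (0.12), W2 (0.057) or W3 (0.061), by edgeR's quasi-likelihood test. Exons of Sox21 overlap a gene on the opposite strand over 18.8% of their bases, and its counts are uncertain.

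Bmi1 encodes a core subunit of Polycomb repressive complex 1, which silences genes by ubiquitinating histone H2A and in stem cells restrains the Cdkn2a locus. Its libraries held 20.5, 18.5 and 23.4 CPM in M1 to M3, against 20.8, 24.6 and 29.3 CPM in W1 to W3. The groups overlapped. Its log2 fold change was -0.26 ± 0.18 (SE) with a 95% interval of -0.67 to 0.16, which leaves room for a level 1.12-fold higher or down to 0.627 of wildtype. Of the words of 50 bases in Bmi1 transcripts, 16.6% also occur in the pseudogene Gm5946, so its counts are uncertain. Of 15 other tested subunits of the complex, Cbx6, a chromodomain subunit, was called and rose by 2.08 ± 0.20 (log2, SE), while 10 of the 15 were below 0. Cbx6 shares 5.31% of its exon bases with Npcd on the same strand.

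Abcg2 encodes the drug efflux pump that sets apart the side population, a dye-excluding fraction used to sort limbal stem cells. It had 5.45, 1.94 and 3.78 CPM in M1 to M3, against 8.62, 10.2 and 7.65 CPM in W1 to W3. Every mutant library lay below every wildtype library. The log2 fold change was -1.25 ± 0.40 (SE), with a 95% interval of -2.17 to -0.32, but the adjusted p over all genes was 0.096 in edgeR's quasi-likelihood test. DESeq2 gave adjusted p = 0.032 and limma-voom 0.049. Without M1 the log2 fold change was -1.62, and without M2 it was -0.94. Of 9 other tested drug efflux transporters 2 rose. Abcc1, which exports glutathione conjugates, averaged 72.3 ± 12.9 CPM in mutant and 26.6 ± 0.224 CPM in wildtype corneas (SD, n = 3 each). Abcb1b, a P-glycoprotein, had 78, 83 and 84 counts in M1 to M3, against 0, 2 and 11 counts in W1 to W3. It passed the low-count filter only through the mutant libraries, and its call ended without M1 (adjusted p = 0.10), M2 (0.11), M3 (0.11) or W2 (0.10), by edgeR's quasi-likelihood test. Vascular endothelium also expresses Abcg2, and the vascular marker sum was higher in all mutant libraries; its part in the Abcg2 levels was not tested.

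Itga9 encodes the integrin alpha 9 chain, which pairs with Itgb1 and binds tenascin-C among other ligands. Its level was 12.5, 5.55 and 6.89 CPM in M1 to M3, against 15.2, 13.8 and 10.6 CPM in W1 to W3. M1 overlapped the wildtype range and the other 2 mutant libraries were below it. On the log2 scale the fold change was -0.67 ± 0.33 (SE), with a 95% interval of -1.44 to 0.10, and was not called (adjusted p = 0.27, edgeR's quasi-likelihood test); without M1 it was -1.08 and without M2 -0.45. Of 9 tested genes for its partner and ligands, 2 rose and none fell. Tnc, which encodes tenascin-C, had 166, 109 and 151 CPM in M1 to M3, against 20.2, 9.14 and 11.2 CPM in W1 to W3, and rose by 3.39 ± 0.32 (log2, SE). Vegfa, the angiogenic growth factor, rose by 1.26 ± 0.18 (log2, SE). Itgb1 averaged 149 CPM in mutant and 114 CPM in wildtype corneas, with adjusted p = 0.083 in edgeR's quasi-likelihood test. Stromal cells also make tenascin-C, and the stromal marker sums given above were higher in mutant; their part in the Tnc rise was not tested. Exons of Tnc overlap another gene on the opposite strand over 2.27% of their bases.

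Cd63 encodes a tetraspanin of late endosomes and exosomes, found in most cell types and listed among outer limbal genes in mouse. It had 20.6, 8.99 and 23.6 CPM in M1 to M3, against 0.908, 13.1 and 7.22 CPM in W1 to W3. M2 fell within the wildtype range, and W1, with 16 counts, was far below the other libraries. Its fold change on the log2 scale was 1.32 ± 0.76 (SE), with a 95% interval of -0.41 to 3.06 and adjusted p = 0.34 in edgeR's quasi-likelihood test. Without W1 it was 0.80, and without W2 2.12. The markers of vessels and melanocytes were lowest in W1 as well, and their part in its low Cd63 was not tested. The pseudogene Cd63-ps holds 9.70% of the words of 50 bases of Cd63, and the counts are uncertain for that reason.

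Of 14 other tested tetraspanin and lysosomal membrane genes 1 rose and 1 fell, where 10.1% of all tested genes were called. Tspan1, a tetraspanin of secretory epithelia, averaged 90.7 ± 9.90 CPM in mutant and 30.4 ± 4.27 CPM in wildtype corneas (SD, n = 3 each). Cd82 fell by 0.47 ± 0.11 (log2, SE), but its call ended without M1 (adjusted p = 0.13), M2 (0.082), M3 (0.17), W2 (0.12) or W3 (0.072), by edgeR's quasi-likelihood test. Lamp1 and Lamp2, the main lysosomal membrane proteins, averaged 222 and 132 CPM in mutant corneas, against 201 and 142 CPM in wildtype corneas, and neither was called.

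Mt1 encodes metallothionein 1, a small cysteine-rich protein that binds zinc and copper and is induced by metals and glucocorticoids. It had 49.0, 55.5 and 61.4 CPM in M1 to M3, against 48.5, 40.5 and 23.9 CPM in W1 to W3. The groups did not overlap, but M1 and W1 were almost equal. The log2 fold change was 0.56 ± 0.24 (SE), with a 95% interval of -0.0061 to 1.12 and adjusted p = 0.22 in edgeR's quasi-likelihood test. It was 0.29 without W3 and 0.78 without W1. Mt2, the other widely expressed metallothionein, shares 73.5% of its exon bases with Gm45774 on the opposite strand. It averaged 39.0 CPM in mutant and 34.4 CPM in wildtype corneas and was not called. Of 6 other tested genes of metallothioneins and zinc handling, the zinc importer Slc39a4 was called and rose by 1.58 ± 0.34 (log2, SE). That call ended without M2 (adjusted p = 0.078), M3 (0.11) or W2 (0.085), by edgeR's quasi-likelihood test.

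**Figure D3:**
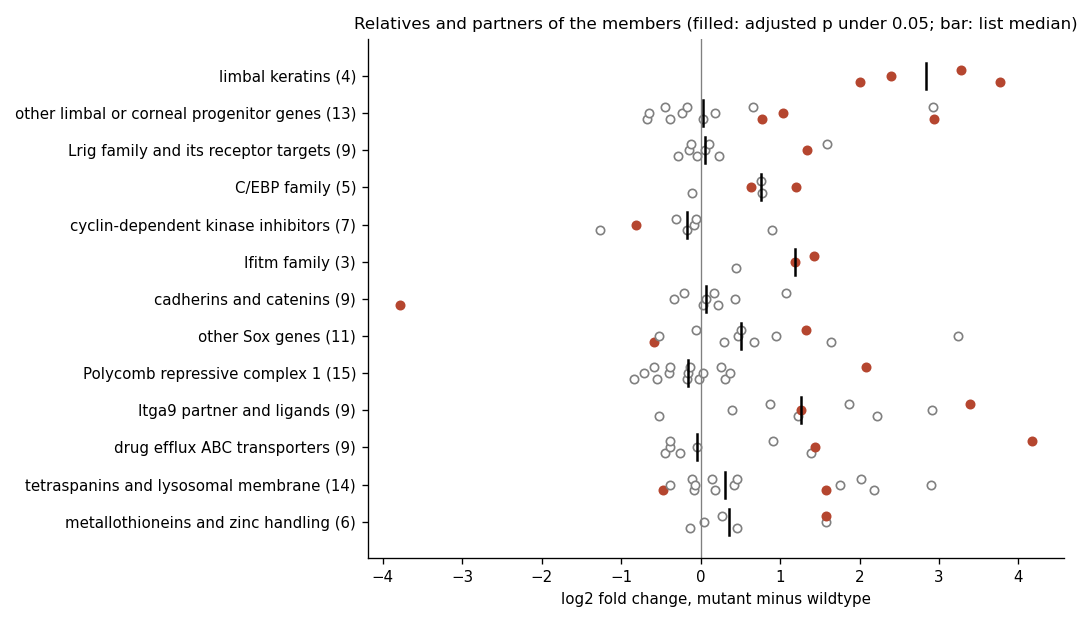
Log2 fold change, mutant minus wildtype, of the tested relatives and partners of the 10 genes, 1 row per list with the number tested in parentheses; filled points passed adjusted p 0.05 and bars are list medians. The 4 limbal keratins all lie above 0 and are called, while the cadherins and Polycomb subunits are centred near 0, with medians of 0.06 and -0.15.

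Among other genes named for limbal or corneal progenitor cells, 13 were tested, of which 3 rose and none fell, and the median log2 fold change was 0.03. Socs3, a feedback inhibitor of cytokine signalling, averaged 17.0 ± 10.9 CPM in mutant and 2.20 ± 0.579 CPM in wildtype corneas (SD, n = 3 each). Tcf4, a basic helix-loop-helix factor, rose by 1.04 ± 0.21 and Prom1, the membrane protein prominin 1, by 0.77 ± 0.14 (log2, SE). Trp63, the p63 factor that maintains stratified epithelial progenitors, averaged 301 CPM in mutant and 295 CPM in wildtype corneas, with a log2 fold change of 0.03 ± 0.12 (SE). Gpha2, a marker of quiescent outer limbal cells in mouse, averaged 3.98 CPM in mutant and 4.71 CPM in wildtype corneas. Neither was called. By edgeR's quasi-likelihood test the calls ended for Socs3 without M2 (adjusted p = 0.070), M3 (0.073) or W2 (0.058), for Tcf4 without M1 (0.051) or W2 (0.055), and for Prom1 without M2 (0.063), M3 (0.078) or W2 (0.056). Limma-voom did not call Socs3 (adjusted p = 0.097). The limbal keratins Krt14, Krt15, Krt17 and Krt19 all rose, with a median log2 fold change of 2.83, and Krt15 had 5963, 3942 and 5596 CPM in M1 to M3, against 171, 781 and 653 CPM in W1 to W3.

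Levels of different genes were compared per kb of merged exons. In mutant corneas Ifitm3 was highest, at 68.9 ± 14.0 CPM per kb (SD, n = 3), followed by Mt1 (44.4), Lrig1 (27.4), Sox9 (27.0), Cdh3 (18.3), Cebpd (18.1), Bmi1 (5.23), Cd63 (4.82), Itga9 (1.08) and Abcg2 (0.457). In wildtype corneas the order was Lrig1, at 39.5 ± 1.65 CPM per kb (SD, n = 3), Sox9 (37.9), Mt1 (30.2), Ifitm3 (16.1), Cdh3 (6.88), Bmi1 (6.26), Cebpd (2.76), Cd63 (1.92), Itga9 (1.72) and Abcg2 (1.08). Neighbours whose libraries overlapped in mutant were Lrig1 with Sox9, Cdh3 with Cebpd, and Bmi1 with Cd63. In wildtype Lrig1 overlapped with Sox9, Sox9 with Mt1, and Mt1 with Ifitm3, as did Cdh3 with Bmi1, Cebpd with Cd63, and Cd63 with Itga9. With the length of the principal coding transcript in place of merged exons, chosen after seeing the data, Mt1 was first in both genotypes, at 101 CPM per kb in mutant and 68.6 in wildtype.

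**Figure D4:**
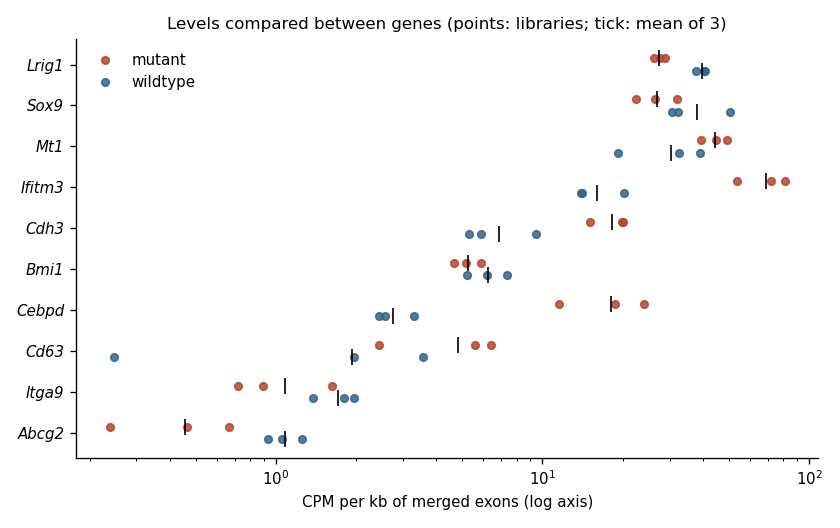
Level per kb of merged exons on a log axis, with mutant libraries (red) above wildtype libraries (blue) for each gene; points are libraries and ticks are means of 3. Abcg2 is lowest in both genotypes, at 0.457 CPM per kb in mutant and 1.08 in wildtype, and the W1 value of Cd63 stands far left of the other Cd63 values.

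Leaving out 1 library at a time gave 6 further fits of each member. Cebpd, Ifitm3 and Cdh3 were called higher in all 6, with log2 fold changes of 2.46 to 2.95, 1.96 to 2.30 and 1.25 to 1.71. Lrig1 was called in the fit without W1. The sign of each member was the same in all 6 fits, and the widest ranges were those of Cd63, 0.80 to 2.12, and Abcg2, -1.62 to -0.94.

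**Figure D5:**
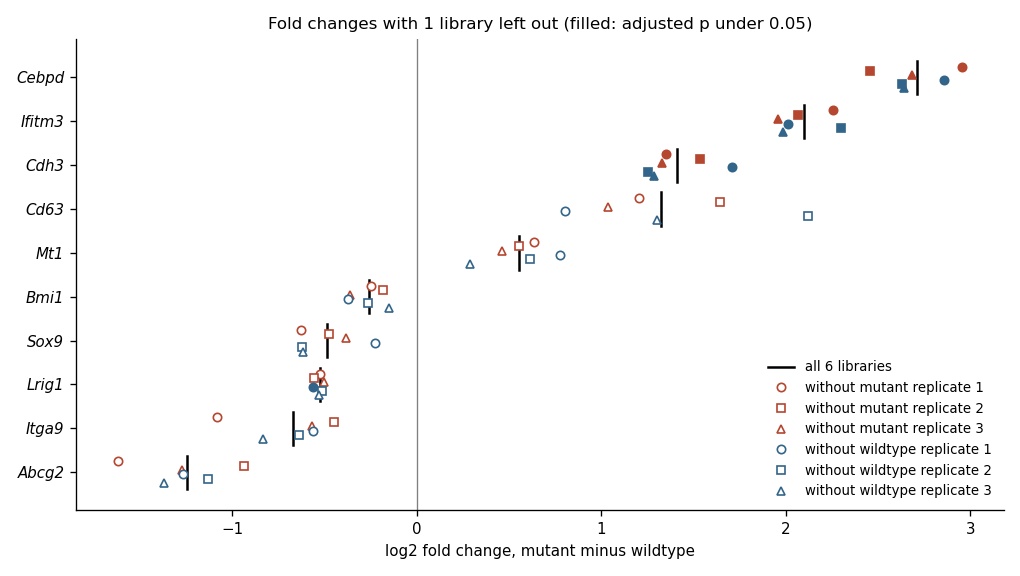
Log2 fold change of each gene, mutant minus wildtype, with all 6 libraries (bar) and with each library left out (symbols, red for mutant and blue for wildtype); filled symbols passed adjusted p 0.05. Cebpd, Ifitm3 and Cdh3 are filled in every fit, and Lrig1 only in the fit without W1, although its values lie within -0.56 and -0.50.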

How the data were processed

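RNA from mouse corneas was measured as RNA-seq with 3 libraries per genotype, from a stranded total RNA kit and paired reads of 100 nucleotides, per the labels' protocols. The submitters' processing notes name build GRCm38 and the tools HISAT2, HTSeq, SAMtools, Trim Galore and edgeR, without versions. Their settings, and whether counting used strand, are not stated there. The deposited files hold raw counts per Ensembl gene, 1 file per library, with 5 summary lines, which were left out; these held 30.1% of all pairs as not aligned and 3.50% as not uniquely aligned. Of 55421 gene IDs, 55240 matched GENCODE M21, which is on the same build and also gave exons.

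The fit used edgeR 4.0.16 under R 4.3.3. Low genes were removed by filterByExpr, at a minimum count of 10 and a minimum total of 15, and TMM gave the scaling. Genotype was the only term in edgeR's quasi-likelihood test, and a Benjamini-Hochberg adjusted p under 0.05 was a call. CPM uses the TMM-scaled totals of the tested genes. Levels between genes are CPM per kb of merged exons. Shared sequence is the share of a gene's words of 50 bases found, on either strand, in GENCODE transcripts of other genes. The scripts were tested on simulated data. The series design names the libraries biological replicates; nothing says how many corneas or animals each holds, so p-values measure only the spread between these libraries.

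The members and lists were chosen with earlier results of these data known. The named genes are all members, up to 4 called genes of each family or pathway list with the smallest p plus any called gene against their direction, and, for each called member, the 2 genes with an official symbol and the smallest root mean square difference in centred log2 CPM (prior count 2). Uncalled list genes in the text were picked with their values known. Results were recomputed with DESeq2 1.42.0, with limma-voom (limma 3.58.1), with RLE or upper-quartile scaling or none, unfiltered, with at least 1 CPM in 3 libraries, minus mitochondrial and structural RNA genes, and with each library left out.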

Additional observations from a re-analysis of the deposited data

How the results depend on the processing

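Cebpd, Ifitm3 and Cdh3 were called higher under all 14 alternatives, and no member changed sign under any of them. The number of members called lower was 2 with DESeq2 and with limma-voom, where Abcg2 joined Lrig1. Without the low-count filter 5 members were called higher and 3 lower, as Cd63, Mt1, Sox9 and Abcg2 passed; the cause was not tested. With 1 library left out, 3 to 3 members were called higher and 0 to 1 lower. Over all genes 850 were called higher and 679 lower; the counts were 1325 and 1033 with DESeq2, 1588 and 1137 without the filter, and 340 to 1227 and 271 to 847 with 1 library left out, the highest being without W1. Other scalings moved the median of all genes by less than 0.1 on the log2 scale. Counts per library were as low as 16 for Cd63, 35 for Abcg2 and 100 for Itga9, which limits the precision of those levels. No paired analysis was possible because the labels number the libraries of the genotypes differently; the replicate numbers 1 to 3 used here only name libraries in accession order and tie no mutant library to a wildtype one.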

Other observations

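The genes whose pattern over the 6 libraries was nearest to that of each called member were found by the root mean square difference of centred log2 CPM, given here in log2 units as a description. Nearest to Cebpd were Gsap (0.17) and Qsox1 (0.25). Qsox1 had 62.4, 76.2 and 88.2 CPM in M1 to M3, against 12.7, 10.6 and 9.25 CPM in W1 to W3. Nearest to Ifitm3 were Sec24d (0.15), a coat protein of vesicles leaving the endoplasmic reticulum, and Galnt12 (0.15), an enzyme that starts mucin-type glycans. Cdh3 was nearest to Rhbdl3 (0.11) and Cmah (0.13), and Cmah stood at 784, 716 and 923 CPM in M1 to M3, against 461, 285 and 283 CPM in W1 to W3. Lrig1 was nearest to Ift172 (0.04), a subunit of ciliary transport, and Suds3 (0.05), a subunit of the Sin3 corepressor complex. Among the members themselves the nearest pair was Lrig1 and Bmi1 (0.22), and the nearest pair of called members was Cebpd and Ifitm3 (0.44). The values were centred and not scaled, so genes that vary little lie near each other by this measure. Lrig1 and Bmi1 had small log2 fold changes, of -0.53 and -0.26.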
